A study of Mus musculus with 13 samples.

Results

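The comparison described here is that of psoas against EDL (extensor digitorum longus) in *mdm* mice, made over the 10 libraries whose labels give these muscles, 5 of each, out of 13 libraries of *mdm* muscle. A gene entered when 3 or more of the 13 libraries held 10 or more normalized counts of it, which left 17069 of the 17924 genes in the deposited tables and set 855 aside. The myosins, the muscle ankyrin repeat proteins (*Ankrd1*, *Ankrd2* and *Ankrd23*), the respiratory chain subunits and the collagens were tested with the rest, but the genes described are the others. The study sequenced total RNA of whole muscles, and its wild-type part is not analysed here. Every mouse was of the *mdm* genotype, from a colony of the strain B6C3Fe a/a-Ttn mdm/J, without treatment. EDL replicates 1 to 5 came from mice of 38, 38, 42, 38 and 38 days, and psoas replicates 1 to 5 from mice of 29, 38, 42, 38 and 38 days. No wild-type muscle is in the comparison, so differences that any psoas and EDL have and those that come with the mutation cannot be told apart.

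The *mdm* allele (muscular dystrophy with myositis) removes a short piece of titin, the giant sarcomere protein that spans from Z-disc to M-line and carries passive tension. EDL is a muscle of the lower hindlimb that dorsiflexes the toes, and psoas runs from the lumbar spine to the femur and flexes the hip. Both are rich in fast fibres, which in a healthy adult break down glycogen for rapid contraction and express fast isoforms of the troponins, the calcium store proteins and the glycolytic enzymes. Regenerating or denervated fibres return in part to the embryonic programme, with myogenic factors, fetal acetylcholine receptor subunits and fetal growth factors.

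Total counts ran from 12059090 to 48835209 in EDL and from 16315975 to 30009501 in psoas, and this depth limits mainly the genes with few counts. Means are given ± SD over the 5 libraries of a muscle, and log2 fold changes, always of psoas minus EDL, come with their SE and adjusted p from edgeR's quasi-likelihood fit. A lone signed value in parentheses after a gene is its log2 fold change. The labels do not say which libraries came from separate mice, so these p-values measure the spread between these samples. Replicate 1 stood apart by design, since its EDL and psoas came from mice of different age and carry different condition codes, while replicates 2 to 5 shared both between the muscles. Psoas replicate 2 stood apart in lymphoid transcripts, with 10903 normalized counts of *Ighm*, the immunoglobulin M heavy chain, against 62.3 to 225 in the other psoas libraries. Many of the results that rest on that library are given with and without it. Both groups held abundant muscle transcripts, with 1371914 to 2699993 summed normalized counts of 10 myonuclear genes in EDL and 925290 to 1801840 in psoas. Of these 10 genes 8 had a log2 fold change below 0 (median -1.14). By the call rule given below 3 were lower and 0 higher in psoas, and 0 were lower without EDL replicate 3 or without psoas replicate 2. The lists of muscle functions below were not adjusted for this difference, and its part in them was not tested.

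The muscles differed by 841 genes (4.93% of those tested), 415 higher and 426 lower in psoas (edgeR quasi-likelihood test, Benjamini-Hochberg adjusted p under 0.01 and more than 2-fold), against a median log2 fold change of 0.02 over all genes tested. These calls are 2.43% and 2.5% of the genes tested, and the counts of list members are to be read against these shares. An unadjusted p under 0.05 in edgeR was reached by 5679 genes (33.3%). Counts of list members at that limit are to be read against this larger share. The normalized counts of 1106 genes lay higher in every psoas than in every EDL library (6.48% of those tested) and those of 1119 genes lay lower (6.56%), among them 392 of the 415 and 394 of the 426 called genes. Pairing the muscles by their replicate number raised the calls to 702 genes higher (4.11%) and 565 lower (3.31%), which took in 389 and 372 of those above. This pairing includes replicate 1, whose muscles came from different mice. A smaller set of 121 genes higher (0.709%) and 110 lower (0.644%) was called in the main test and in all of 23 other fits. Those fits left out each library in turn or changed the tool, the scaling, the filter or the covariates, and "in every fit" has that meaning throughout. The stricter filter over all 10 libraries, which leaves out genes low in 1 muscle, is not among the 23. Without EDL replicate 3 the counts were 170 and 147, without psoas replicate 2 they were 208 and 157, without EDL replicate 5 they were 199 and 227, and without psoas replicate 1 they were 247 and 200. Without psoas replicate 3, 275 genes were lower. Differences were also taken within each of the 3 condition codes that hold both muscles, and could be computed for 115, 114 and 116 of the 118 called genes named by rule, none of which turned its direction there. The sizes differed. The median log2 fold change of the named lower genes was -2.65 and -2.43 between the muscles of replicate 2 and of replicate 3 but -1.42 in replicates 4 and 5, and that of the named higher genes was 2.0, 2.22 and 1.98. For *Mstn*, the growth inhibitor myostatin, the values were -5.65, -7.05 and -0.59, and for *Gapdh* of glycolysis they were -1.85, -2.19 and -0.5.

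**Figure D1:**
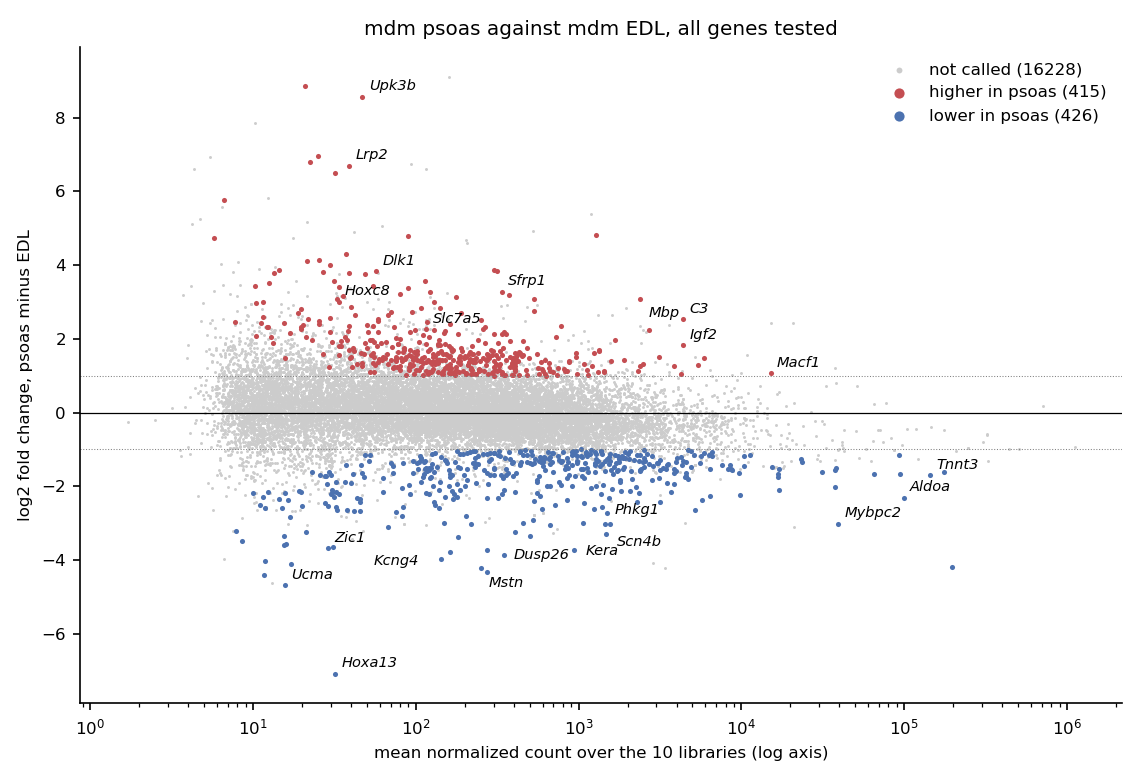
Log2 fold change of psoas minus EDL (vertical axis) against the mean normalized count over the 10 libraries (horizontal log axis) for the 17069 genes tested. The 415 red points are called higher and the 426 blue points lower in psoas, dotted lines mark 2-fold, and the abundant called genes at the right (*Aldoa*, *Tnnt3*, *Mybpc2*) lie below 0.

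Genes of the glycogen metabolism and glycolysis lists were lower in psoas where called, *Hk1* excepted. Of 22 genes of glycogen metabolism, 8 were lower and 0 higher in psoas (list median log2 fold change -1.23), and of 24 genes of glycolysis, 10 were lower and 1 higher (median -1.25). Without EDL replicate 3 the lower calls were 4 and 4, and without psoas replicate 2 they were 4 and 5. *Phkg1*, the catalytic subunit of phosphorylase kinase in muscle (chromosome 5, 129863421 to 129898549, reverse strand on GRCm38), had normalized counts of 2174, 2752, 3785, 1774 and 2376 in EDL replicates 1 to 5 and of 90.8, 114, 218, 492 and 675 in psoas replicates 1 to 5. The groups did not overlap, and replicates 4 and 5 were the highest of the psoas libraries (log2 fold change -3.03, SE 0.516, adjusted p = 0.00264). Its partner *Phka1*, the regulatory alpha subunit, averaged 2577 ± 1055 in EDL and 619 ± 342 in psoas (log2 fold change -2.07, SE 0.37, adjusted p = 0.00345), and this call was lost without EDL replicate 3 (adjusted p = 0.0105). *Pygm*, the muscle glycogen phosphorylase that these subunits activate, was 4.33 times as abundant in EDL as in psoas (log2 fold change -2.11, SE 0.38, adjusted p = 0.00346), with an adjusted p of 0.0107 without psoas replicate 2. *Ppp1r3a* and *Ppp1r3c*, which bring protein phosphatase 1 to glycogen, were lower in psoas by 5.2 and 6.27 times. The kinase's beta subunit gene *Phkb* (-1.37) and *Pgm1* (-1.71), which interconverts glucose phosphates, were also lower and are named outside the rule.

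The promoters of *Phka1* and *Ppp1r3a* are shown because they hold the letters CTA and TAG with 4 bases of any kind between them. This pattern is looser than the core bound by the MEF2 factors of muscle, in which the middle bases are A or T. It was searched in the windows from 250 bases before to 50 bases after each RefSeq gene start. RefSeq windows on GRCm38.p6 were matched for 16 of the 18 genes of the glycolysis and glycogen lists that were lower in psoas, with 22 windows, and for 11338 of all genes tested, with 14457 windows. The looser pattern was in 2 of the 22 windows (9.09%) and in 3.22% of all windows, and the form with only A or T in the middle was in 1 of the 22 (4.55%), that of *Ppp1r3a*, and in 0.519% of all windows. The stretch in the *Phka1* window has another base in the middle and is not this narrower form. The E-box CANNTG stood in 72.7% and 65.0% of them, and the M-CAT letters CATTCC in 18.2% and 12.8%, searched on both strands and without regard to overlap between motifs. Neither the looser pattern nor its narrower form stood in the 8 windows of fast contractile, calcium and membrane channel genes lower in psoas. Both were also absent from the 7 windows of Schwann cell markers and 6 of mesothelium markers higher in psoas. The same held for the 9 windows of tendon and cartilage markers lower in psoas. These matches and absences are descriptions of sequence and were not tested. Capitals mark the looser pattern, which begins 216 bases before the start of *Phka1* (window chrX:102644197-102644496, reverse strand) and 100 bases before that of *Ppp1r3a* (window chr6:14755225-14755524, reverse strand).
Phka1: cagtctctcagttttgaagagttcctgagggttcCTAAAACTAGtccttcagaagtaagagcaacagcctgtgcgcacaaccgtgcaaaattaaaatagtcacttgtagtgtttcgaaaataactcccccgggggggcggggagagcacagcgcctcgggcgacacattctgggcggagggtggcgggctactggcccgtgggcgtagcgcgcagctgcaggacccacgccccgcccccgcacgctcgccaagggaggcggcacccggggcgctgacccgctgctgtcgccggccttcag
Ppp1r3a: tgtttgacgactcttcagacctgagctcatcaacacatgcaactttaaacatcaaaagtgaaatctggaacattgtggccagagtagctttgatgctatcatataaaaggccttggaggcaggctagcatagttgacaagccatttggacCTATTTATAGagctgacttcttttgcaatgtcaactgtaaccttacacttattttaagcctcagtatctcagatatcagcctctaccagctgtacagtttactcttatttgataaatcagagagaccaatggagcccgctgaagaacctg

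Among the glycolytic genes, *Aldoa*, aldolase A (chromosome 7, 126795234 to 126800751, reverse strand), had normalized counts of 124556, 176536, 252405, 107558 and 163365 in EDL and 14004, 23891, 28163, 48274 and 52586 in psoas. All psoas libraries lay below all EDL libraries, and psoas replicate 1 was the lowest (log2 fold change -2.31, SE 0.373, adjusted p = 0.00203). *Slc16a3*, the lactate exporter MCT4, counted 3339, 3043, 2407, 2025 and 2129 in EDL and 120, 417, 269, 642 and 511 in psoas, a 6.63-fold difference without overlap (log2 fold change -2.73, SE 0.359, adjusted p = 0.00101). *Pgam2*, the muscle phosphoglycerate mutase, and *Fbp2*, the muscle fructose bisphosphatase, were 4.83 and 6.95 times as high in EDL, and all 4 of these genes were called in every fit. *Eno3*, the muscle enolase, averaged 60437 ± 17429 in EDL and 15056 ± 9297 in psoas (log2 fold change -2.01, SE 0.446, adjusted p = 0.00907), and its call held in 3 of 13 leave-one-out fits (highest adjusted p = 0.0257, without psoas replicate 2). *Gapdh* averaged 56517 ± 22259 in EDL and 20166 ± 5244 in psoas (log2 fold change -1.49, SE 0.337, adjusted p = 0.00957). Its call held in 2 of 13 leave-one-out fits (highest adjusted p = 0.0275, without EDL replicate 3) and was not made with the replicate block (adjusted p = 0.0165). The called genes also included the muscle phosphofructokinase *Pfkm* (-1.53), pyruvate kinase *Pkm* (-1.18), hexokinase *Hk2* (-1.38) and the insulin-responsive glucose transporter *Slc2a4* (-1.57), named outside the rule, of which *Hk2* was not called with the replicate block (adjusted p = 0.0113). In the opposite direction, *Hk1*, the hexokinase found in most tissues, counted 110, 140, 91.6, 168 and 218 in EDL and 416, 319, 362, 464 and 396 in psoas (log2 fold change 1.43, SE 0.269, adjusted p = 0.00417, and 0.0128 without EDL replicate 3).

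Genes of the fast contractile apparatus were lower in psoas where called. Of 8 fast troponin and Z-disc genes 4 were lower, 2 without EDL replicate 3 and 2 without psoas replicate 2 (median -1.68), and of 9 slow ones 0 were called (median -0.30, with 1 at an unadjusted p under 0.05 in edgeR and 0 called by DESeq2). Slow troponins changed direction between condition codes. *Tnnt1* had log2 fold changes of 1.13 in replicate 2, 1.75 in replicate 3 and -1.72 in replicates 4 and 5. For *Tnni1* they were 1.78, 2.13 and -0.71, while the slow form *Mybpc1* went the other way (-1.5, -0.73 and 0.67). *Tnnt3*, fast troponin T (chromosome 7, 142498836 to 142516009, forward strand), counted 193233, 214824, 267191, 178513 and 243934 in EDL and 48193, 46450, 66728, 98112 and 79246 in psoas (log2 fold change -1.70, SE 0.275, adjusted p = 0.00203). *Myoz1*, the Z-disc protein of fast fibres that binds calcineurin, was 4.72 times as high in EDL (log2 fold change -2.24, SE 0.396, adjusted p = 0.00317). *Mybpc2*, fast myosin binding protein C, counted 27496, 96833, 129556, 51674 and 43075 in EDL and 2559, 3994, 7562, 15676 and 13651 in psoas, again without overlap (log2 fold change -3.01, SE 0.583, adjusted p = 0.00468). This call was lost on leaving out any 1 of EDL replicate 3 and psoas replicates 2 and 3 (highest adjusted p = 0.0139, without psoas replicate 2). *Tnni2*, fast troponin I, averaged 98650 ± 22800 in EDL and 31079 ± 14450 in psoas (log2 fold change -1.67, SE 0.344, adjusted p = 0.00639), and its call held in 6 of 13 leave-one-out fits (highest adjusted p = 0.0185, without psoas replicate 2). Of the Z-disc genes on the myonuclear list, *Tcap*, the titin cap, was also called (log2 fold change -1.75, SE 0.385, adjusted p = 0.00882), with overlapping libraries, and the call held in 2 of 13 leave-one-out fits (highest adjusted p = 0.0258, without EDL replicate 3).

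Calcium handling and membrane excitability genes were lower in psoas where they were called. Of 22 calcium genes 4 were lower and 0 higher (median -0.77), and of 19 channel and pump genes 6 were lower and 0 higher (median -0.83). *Casq1*, the calcium-binding protein of the fast sarcoplasmic reticulum, averaged 22505 ± 7530 in EDL and 8113 ± 3011 in psoas, and *Trdn*, triadin, which anchors it to the release channel, averaged 47084 ± 18392 in EDL and 15453 ± 4402 in psoas. The *Casq1* call (adjusted p = 0.00571) was lost on leaving out any 1 of EDL replicates 2 and 3 and psoas replicates 1, 2 and 5 (highest adjusted p = 0.0167, without psoas replicate 2). The *Trdn* call (adjusted p = 0.00401) was lost on leaving out any 1 of EDL replicate 3 and psoas replicate 2 (highest adjusted p = 0.0111, without psoas replicate 2). *Stac3*, part of the voltage sensor complex, and *Hrc*, the histidine-rich calcium-binding protein, passed by little (-1.14 with adjusted p = 0.00936 and -1.54 with adjusted p = 0.00953), and held in 1 and 2 of 13 leave-one-out fits. Without EDL replicate 3, and equally without psoas replicate 2, 0 of the 22 calcium genes were called. The calcium buffer *Pvalb* had counts of 20177, 33278, 51167, 50993 and 33406 in EDL and 543, 922, 1550, 9414 and 9617 in psoas, and its log2 fold change of -3.10 had an adjusted p of 0.0139 and was not called, although it passed with the replicate block (adjusted p = 0.00398).

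The steepest difference among the channels was that of *Kcng4*, a modifier subunit of voltage-gated potassium channels (chromosome 8, 119623854 to 119635680, reverse strand), with 77.1, 137, 486, 265 and 365 normalized counts in EDL and 6.52, 2.14, 4.58, 21.7 and 51.4 in psoas. The groups did not overlap, but psoas replicate 5 and EDL replicate 1 lay near each other (log2 fold change -3.97, SE 0.755, adjusted p = 0.00429). This call was lost on leaving out any 1 of EDL replicates 3 and 5 and psoas replicate 1 (highest adjusted p = 0.0132, without EDL replicate 3). *Scn4b*, a beta subunit of sodium channels, counted 1882, 3742, 4043, 1627 and 2077 in EDL and 38.7, 73.7, 157, 355 and 751 in psoas (log2 fold change -3.29, SE 0.648, adjusted p = 0.00521), and its call was lost on leaving out any 1 of EDL replicate 3 and psoas replicates 2, 3 and 4 (highest adjusted p = 0.0144, without EDL replicate 3). *Kcna7*, a potassium channel of the fast fibre membrane, and *Kcnj2*, the inward rectifier that sets the resting potential, had log2 fold changes of -2.51 and -1.50. *Fxyd1* (-1.19), which regulates the sodium pump, was also lower and is named outside the rule. Leaving out EDL replicate 3 ended all 6 calls, with adjusted p of 0.012 and 0.0135 for *Kcna7* and *Kcnj2*. Without psoas replicate 2 there were 3.

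**Figure D2:**
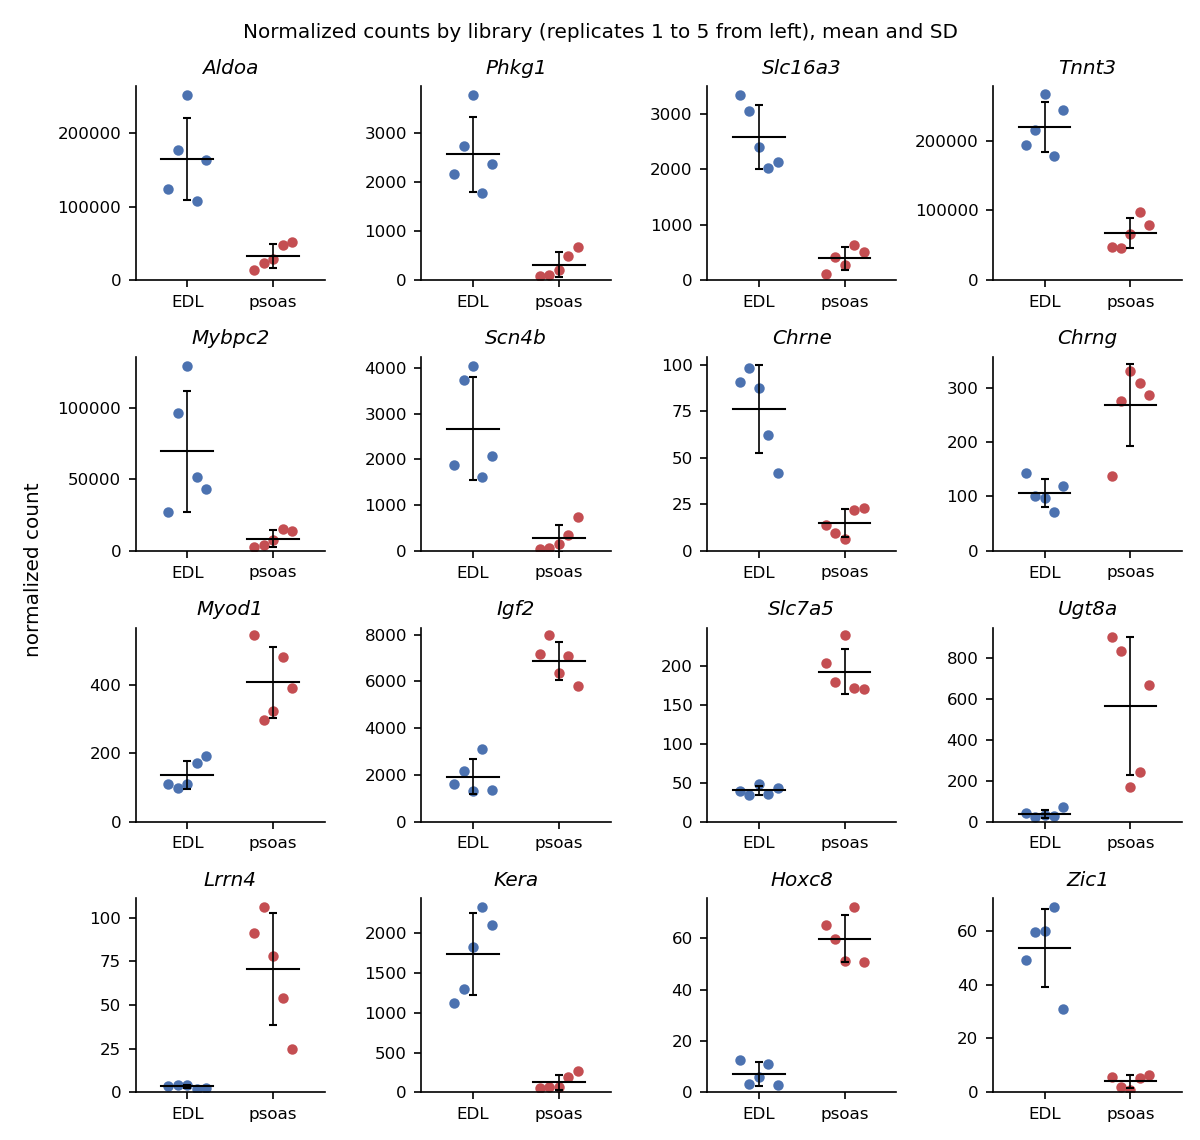
Normalized counts (vertical axes, linear from 0) of 16 of the genes described, by muscle, with each point 1 library, the horizontal bar the mean and the vertical bar the SD over 5 libraries (cut at 0). EDL is blue and psoas red, and the groups do not overlap in 15 of the 16 panels, *Chrng* being the exception.

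Several muscle proteins exist in a form typical of adult fast fibres and another form found earlier in development, in slow fibres or in other tissues, and 26 such pairs were listed. Both forms were tested in 25 pairs. The adult fast form was lower in psoas in 16 of them and higher in 0, while the other form was lower in 1 and higher in 1. The adult forms had a median log2 fold change of -1.70 and the other forms of 0.26, and in 23 of the 25 pairs the adult form had the lower value. *Rpl3l*, the muscle form of ribosomal protein L3, counted 1969, 3063, 3783, 2232 and 2759 in EDL and 53.1, 94.5, 255, 535 and 785 in psoas (log2 fold change -3.01, SE 0.593, adjusted p = 0.00523), whereas the common form *Rpl3* averaged 7425 ± 1638 in EDL and 9173 ± 995 in psoas (adjusted p = 0.283). Per base of exon, *Rpl3l* made up 41.9% ± 10.6 in EDL and 6.51% ± 5.74 in psoas of the pair. The call of *Rpl3l* was lost on leaving out any 1 of EDL replicates 3 and 5 and psoas replicates 2 and 3 (highest adjusted p = 0.0144, without EDL replicate 3).

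*Chrne* and *Chrng* were the 1 pair in which both forms were called in opposite directions. *Chrne* encodes the epsilon subunit of the adult acetylcholine receptor (chromosome 11, 70614883 to 70619216, reverse strand) and counted 90.7, 98.2, 87.6, 62.1 and 41.9 in EDL and 14, 9.61, 6.41, 21.7 and 23.2 in psoas (log2 fold change -2.35, SE 0.452, adjusted p = 0.00452). *Chrng* encodes the gamma subunit of the fetal receptor (chromosome 1, 87204657 to 87212694, forward strand) and counted 143, 100, 97.6, 71.9 and 119 in EDL and 138, 275, 330, 309 and 286 in psoas (log2 fold change 1.32, SE 0.297, adjusted p = 0.00943). The *Chrne* libraries did not overlap, while psoas replicate 1 lay within the EDL range for *Chrng*. The adult subunit was 63% ± 9.96 in EDL and 12.8% ± 6.36 in psoas of the pair per base of exon. The *Chrne* call was lost on leaving out any 1 of EDL replicate 3 and psoas replicates 1 and 2 (highest adjusted p = 0.0146, without psoas replicate 2), and the *Chrng* call held in 3 of 13 leave-one-out fits (highest adjusted p = 0.0263, without EDL replicate 3) and was not made with the replicate block (adjusted p = 0.0115).

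*Tuba8*, an alpha tubulin of muscle, had the largest fold of the adult forms, with 1080, 889, 1067, 582 and 977 normalized counts in EDL and 33.1, 13.4, 34.8, 178 and 194 in psoas (log2 fold change -3.36, SE 0.59, adjusted p = 0.00306), beside *Tuba1a* at a log2 fold change of 0.74 (adjusted p = 0.0295). *Mybpc2* went from 71.3% ± 7.21 of its pair with *Mybpc1* in EDL to 25.5% ± 13.4 in psoas, and *Casq1* made up 76.1% ± 11.5 in EDL and 49.3% ± 9.29 in psoas of its pair with *Casq2*, both per base of exon. *Phkg1* was 93.7% ± 2 in EDL and 61.7% ± 20.1 in psoas of its pair with *Phkg2*, and *Ckm*, the muscle creatine kinase, which predominated in both muscles, was 99.7% ± 0.204 in EDL and 98.7% ± 0.935 in psoas of its pair with *Ckb*. The other forms *Tnnt1*, *Tnni1*, *Mybpc1*, *Myoz2*, *Casq2*, *Eno1*, *Ckb*, *Pygb*, *Phkg2*, *Phka2* and *Slc25a5* had log2 fold changes from -0.44 to 0.82 and adjusted p from 0.0377 to 0.738. *Pgam1* had a log2 fold change of 1.38 (adjusted p = 0.0414), which passed with the replicate block (adjusted p = 0.00776). The exception among the called pairs was that of *Ppp1r3a* and *Ppp1r3c*, which were both lower.

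**Figure D3:**
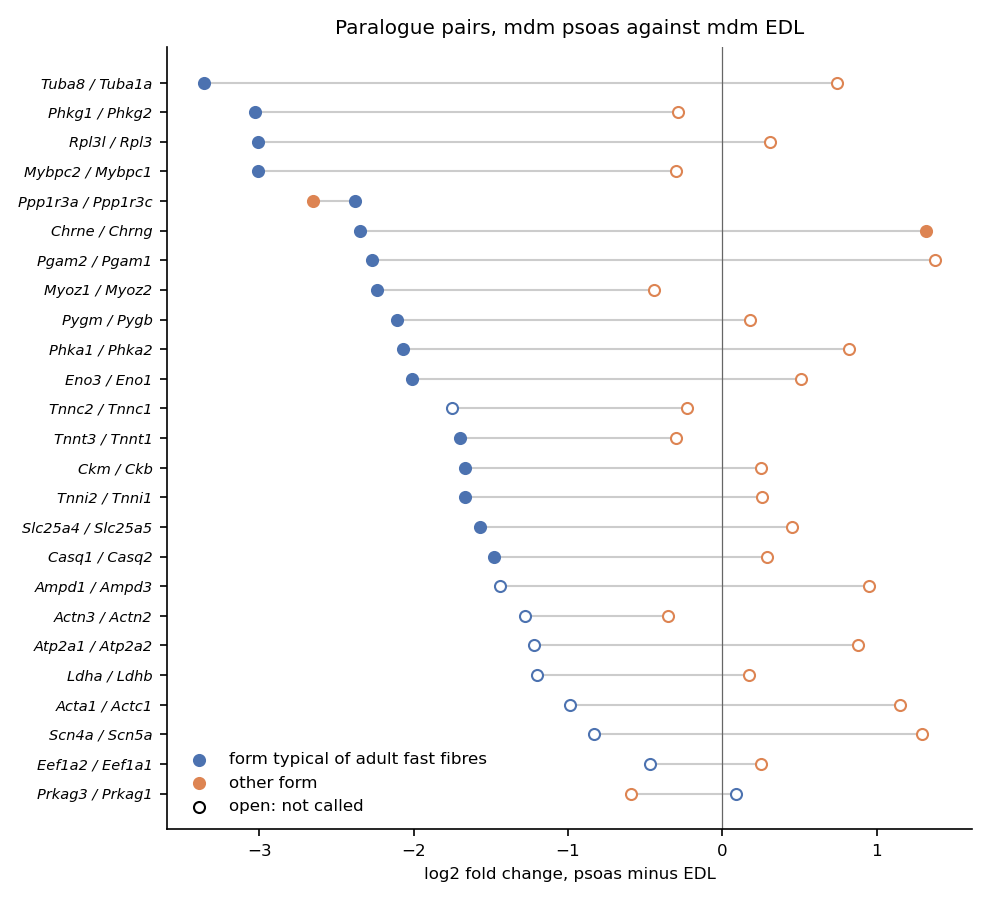
Log2 fold change of psoas minus EDL (horizontal axis) for the 25 pairs with both forms tested, the form typical of adult fast fibres in blue and the other form in orange, filled where called. The blue points reach from -3.36 to 0.09 and lie left of the orange points in 23 pairs.

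High-energy phosphate and oxidative metabolism showed fewer calls. *Ckm* averaged 142446 ± 33652 in EDL and 44991 ± 17260 in psoas (log2 fold change -1.67, SE 0.302, adjusted p = 0.00356, and 0.0107 without psoas replicate 2), and *Adssl1*, which makes adenylosuccinate in the purine nucleotide cycle of muscle, counted 4379, 6597, 8981, 3756 and 6387 in EDL and 770, 773, 1671, 1740 and 1835 in psoas (log2 fold change -2.15, SE 0.314, adjusted p = 0.00127). *Gatm*, which makes the creatine precursor guanidinoacetate, was higher in psoas, at 628, 1119, 588, 969 and 845 against 287, 323, 187, 353 and 229 in EDL (log2 fold change 1.59, SE 0.227, adjusted p = 0.00122). Neither *Adssl1* nor *Gatm* overlapped between the muscles, and both were called in every fit. *Slc25a4*, the ADP/ATP carrier of the mitochondrial inner membrane, averaged 56031 ± 10815 in EDL and 18902 ± 8639 in psoas (log2 fold change -1.57, SE 0.317, adjusted p = 0.00585), and its call was lost on leaving out any 1 of EDL replicates 2, 3 and 5 and psoas replicates 1, 2 and 3 (highest adjusted p = 0.0173, without psoas replicate 2). Of 25 genes of the citric acid cycle and its feeders 5 were lower and 0 higher, and 24 of the 25 had a log2 fold change below 0 (median -0.89). Without EDL replicate 3, and also without psoas replicate 2, 1 was lower. *Me3*, the mitochondrial malic enzyme, counted 623, 854, 1081, 763 and 1097 in EDL and 303, 219, 388, 391 and 335 in psoas (log2 fold change -1.44, SE 0.209, adjusted p = 0.00125) and was the 1 of the 5 that every fit called. The aspartate aminotransferases *Got1* (-1.81) and *Got2* (-1.38), the isocitrate dehydrogenase subunit gene *Idh3b* (-1.14) and malate dehydrogenase *Mdh2* (-1.01) were the others. Of these, *Got2* had an adjusted p of 0.0115 without psoas replicate 2, *Got1* and *Idh3b* had 0.018 and 0.0242 without EDL replicate 3, and *Got1* had 0.0143 with the replicate block. Of 29 genes of fatty acid uptake and oxidation 1, the thioesterase *Acot13*, was lower (log2 fold change -1.31, SE 0.273, adjusted p = 0.00676, and 0.0209 without EDL replicate 3) and 0 were higher (median -0.44).

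Genes of muscle development and regeneration were higher in psoas where called, 6 of 22 with 0 lower, and 3 of 22 without EDL replicate 3 or without psoas replicate 2 (median 1.0). *Myod1*, the myogenic transcription factor (chromosome 7, 46376474 to 46379099, forward strand), counted 110, 98.2, 111, 171 and 193 in EDL and 546, 297, 325, 482 and 390 in psoas (log2 fold change 1.58, SE 0.234, adjusted p = 0.00137). *Dlk1*, a transmembrane Notch ligand of fetal muscle, counted 5.96, 17.9, 3.98, 3.27 and 2.71 in EDL and 138, 131, 68.7, 123 and 75.4 in psoas (log2 fold change 3.84, SE 0.552, adjusted p = 0.00122). *Igf2*, the fetal insulin-like growth factor, counted 1629, 2186, 1326, 3115 and 1346 in EDL and 7163, 7967, 6354, 7095 and 5821 in psoas (log2 fold change 1.84, SE 0.304, adjusted p = 0.00225). None of these 3 genes overlapped between the muscles, and *Myod1* and *Dlk1* were called in every fit. *Mymk*, myomaker, the membrane protein of myoblast fusion, averaged 201 ± 57.4 in EDL and 613 ± 182 in psoas (log2 fold change 1.61, SE 0.343, adjusted p = 0.00758), and its call held in 5 of 13 leave-one-out fits (highest adjusted p = 0.0216, without EDL replicate 5). *Megf10*, a receptor of satellite cells named outside the rule, completed the 6 (1.18). *Myog*, *Myf5*, *Pax7* and the embryonic actin *Actc1* were not called, at log2 fold changes of 0.81, 1.27, 1.03 and 1.15. Of 20 cell division genes 0 were called by edgeR (6 at an unadjusted p under 0.05, 1 called higher by DESeq2), with a median of 0.72 and 18 of 20 above 0.

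At the neuromuscular junction 4 of 20 genes were higher and 1, *Chrne*, lower (median 0.51). *Chrnd*, the delta subunit shared by the fetal and adult receptor, counted 113, 133, 93.6, 81.7 and 97.4 in EDL and 175, 266, 291, 252 and 257 in psoas (log2 fold change 1.25, SE 0.252, adjusted p = 0.00585). *Rapsn*, rapsyn, which clusters the receptor, averaged 54.2 ± 14.9 in EDL and 128 ± 24.5 in psoas, and *Runx1*, a transcription factor known to be induced on denervation, averaged 483 ± 160 in EDL and 1273 ± 343 in psoas. All 3 genes lay higher in every psoas library, and their calls (adjusted p = 0.00612 for *Rapsn* and 0.00819 for *Runx1*) held in 6 and 3 of 13 leave-one-out fits, against 5 for *Chrnd*. Without EDL replicate 3 their adjusted p were 0.0181, 0.0184 and 0.0242, and 0 of the 20 genes were called. Leaving out psoas replicate 2 instead also gave 0 calls among the 20. *Musk*, *Lrp4*, *Dok7*, *Colq* and *Ache*, which build or anchor the synapse, had log2 fold changes from -0.63 to 0.37 and were not called.

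Among 36 genes of growth signals 3 were higher and 4 lower (median 0.32). *Bmp5*, a bone morphogenetic protein, counted 342, 169, 213, 195 and 196 in EDL and 50.8, 49.7, 47.6, 55.6 and 56.4 in psoas (log2 fold change -2.10, SE 0.216, adjusted p = 0.000628), and the psoas libraries were close to each other. *Vegfa*, the angiogenic factor that fibres secrete, counted 1473, 1164, 1402, 1191 and 1223 in EDL and 633, 484, 643, 607 and 585 in psoas (log2 fold change -1.13, SE 0.156, adjusted p = 0.00104). *Sfrp1*, a secreted Wnt inhibitor, was higher in psoas, at 426, 1265, 425, 457 and 487 against 70.3, 82.3, 31.9, 93.7 and 31.1 in EDL (log2 fold change 3.28, SE 0.436, adjusted p = 0.00101), with replicate 2 the highest. These 3 genes were called in every fit, and *Dkk3*, of the Dickkopf family of Wnt regulators, was higher in psoas in each leave-one-out fit (log2 fold change 1.46, SE 0.251, adjusted p = 0.00275). *Mstn*, myostatin, the inhibitor of muscle growth, counted 551, 457, 1210, 106 and 48.7 in EDL and 10.2, 9.08, 9.16, 46.9 and 55.5 in psoas. The libraries overlapped, since EDL replicate 5 lay below psoas replicate 5 (log2 fold change -4.21, SE 0.949, adjusted p = 0.00956), and the call held in 4 of 13 leave-one-out fits (highest adjusted p = 0.0292, without EDL replicate 3) and was not made with the replicate block (adjusted p = 0.0306). Its relative *Gdf11* averaged 181 ± 77.9 in EDL and 61.9 ± 19.7 in psoas (log2 fold change -1.55, SE 0.31, adjusted p = 0.00571, and 0.0169 without psoas replicate 2). Outside the list, *Grb10*, an adaptor that restrains insulin and growth factor signals, averaged 2773 ± 360 in EDL and 5791 ± 1441 in psoas (log2 fold change 1.06, SE 0.23, adjusted p = 0.00831), and this call held in 3 of 13 leave-one-out fits (highest adjusted p = 0.0249, without EDL replicate 3).

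Of 48 transcription factors that mark position along the body and limb, 6 were higher and 5 lower in psoas, against 3 and 3 without EDL replicate 3 and 4 and 3 without psoas replicate 2. *Hoxa13*, a factor of the distal limb (chromosome 6, 52257694 to 52260880, reverse strand), counted 52.4, 79.1, 93.6, 50.1 and 41.9 in EDL and 1.4, 0, 0, 0 and 0 in psoas, so that it was at least 23.1-fold lower in psoas, taking 3 counts in the shallowest psoas library as the floor (adjusted p = 0.000495). *Zic1*, a zinc finger factor of the dorsal mesoderm, counted 49, 59.3, 59.7, 68.6 and 31.1 in EDL and 5.59, 2.14, 0.916, 5.21 and 6.63 in psoas (log2 fold change -3.67, SE 0.477, adjusted p = 0.000959). *Hoxc11* was also lower in psoas (log2 fold change -2.53, SE 0.396, adjusted p = 0.00182). *Hoxc8*, a factor of the trunk (chromosome 15, 102990607 to 102994111, forward strand), counted 12.8, 3.19, 5.97, 10.9 and 2.71 in EDL and 65.2, 59.8, 51.3, 72.1 and 50.6 in psoas (log2 fold change 3.01, SE 0.474, adjusted p = 0.00185). *Sim2* had 0 to 4.26 normalized counts in EDL and 32.6, 12.3, 26.6, 26.9 and 19.9 in psoas (log2 fold change 3.51, SE 0.569, adjusted p = 0.00203). All 5 of these genes were free of overlap and were called in every fit. *Hoxc6* (log2 fold change 1.82, SE 0.359, adjusted p = 0.00523) and *Sim1* (log2 fold change 1.92, SE 0.371, adjusted p = 0.00468) were higher in psoas. The *Hoxc6* call held in 6 of 13 leave-one-out fits (highest adjusted p = 0.0161, without psoas replicate 2), and that of *Sim1* was lost on leaving out any 1 of EDL replicates 3 and 5 and psoas replicates 1 and 3 (highest adjusted p = 0.0149, without EDL replicate 3). *Tbx1* was lower (log2 fold change -1.57, SE 0.291, adjusted p = 0.00398, and 0.0125 without psoas replicate 2). *Tbx3* (1.87), *En1* (2.42) and *Tbx15* (-1.39), named outside the rule, were the remaining calls, and *En1* was not called with the replicate block (adjusted p = 0.0113).

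Whole muscles carry nerve, vessels, connective tissue and their surface lining, and in such bulk samples fewer cells of a type and less RNA per cell cannot be told apart. Markers of Schwann cells were higher in psoas, 6 of 14 called and 14 of 14 above 0 (median 2.03). *Drp2*, which links periaxin to the Schwann cell membrane, was called in every fit (log2 fold change 2.36, SE 0.37, adjusted p = 0.00182). *Mbp* (3.09), *Prx* (3.08), *Ncmap* (2.83) and *Pmp22* (2.23, named outside the rule), all of compact or Schwann cell myelin, were called too. Without EDL replicate 3 these 4 calls ended (adjusted p = 0.0154, 0.0139, 0.012 and 0.0185). *Ugt8a*, which makes the myelin lipid galactocerebroside (chromosome 3, 125865271 to 125938619, reverse strand), counted 41.7, 21.7, 33.8, 27.2 and 71.7 in EDL and 903, 831, 170, 244 and 666 in psoas (log2 fold change 3.86, SE 0.582, adjusted p = 0.00156). Every psoas library exceeded every EDL library, and psoas replicate 1 was the highest. *Mal*, a myelin proteolipid, counted 109, 42.1, 31.9, 18.5 and 162 in EDL and 1571, 702, 282, 246 and 556 in psoas (log2 fold change 3.20, SE 0.66, adjusted p = 0.00646), and its call was lost on leaving out any 1 of EDL replicates 1, 2, 3 and 4 and psoas replicates 1 and 2 (highest adjusted p = 0.021, without EDL replicate 3). *Kif1a*, a kinesin of axonal transport, counted 26, 24.2, 11.9, 9.8 and 12.2 in EDL and 573, 207, 78.8, 76.4 and 110 in psoas (log2 fold change 3.56, SE 0.577, adjusted p = 0.00203), and without psoas replicate 1, the highest, the log2 fold change was 2.75 (adjusted p = 0.00227). The summed markers ranged over 1704 to 3368 in EDL and 5391 to 35316 in psoas, and with the replicate block 9 of the 14 were called.

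Mesothelial genes, which mark the lining of body cavities, were higher in psoas, 10 of 15 tested with 0 lower (median 3.01). *Upk3b*, a uroplakin of the mesothelium (chromosome 5, 136038496 to 136046487, forward strand), had 1 count in 1 EDL library and none in the others, and 126, 189, 36.6, 91.2 and 27.4 normalized counts in psoas, at least 15.7-fold higher against a floor of 3 counts in the shallowest EDL library (adjusted p = 0.000654). *Lrrn4* counted 3.83, 4.47, 3.98, 2.18 and 2.71 in EDL and 91.3, 106, 77.9, 53.8 and 24.9 in psoas (log2 fold change 4.30, SE 0.489, adjusted p = 0.000654). *Gpm6a*, a membrane glycoprotein, and *Pkhd1l1*, a large membrane protein, were both called higher. *Gpm6a* averaged 28.1 ± 12.3 in EDL and 232 ± 93.4 in psoas. *Pkhd1l1* counted 13.6, 5.1, 3.98, 2.18 and 1.35 in EDL and 108, 454, 76.9, 155 and 68.8 in psoas (log2 fold change 4.80, SE 0.677, adjusted p = 0.00113). Psoas replicate 2 was the highest, and without it the log2 fold change was 4.08 (adjusted p = 0.0025). *Wt1*, *Upk1b* and *Bnc1*, named outside the rule, did not exceed 3 counts in any EDL library and were at least 8.33-, 10.6- and 6.97-fold higher in psoas by the same floor. *Lrp2*, megalin, an endocytic receptor listed among kidney genes, was at least 13-fold higher (128, 128, 25.6, 67.7 and 39 in psoas, adjusted p = 0.000654). None of the other 5 kidney and adrenal genes tested was called. The summed mesothelial markers were 931 to 1638 in EDL and 1834 to 4739 in psoas, and without EDL replicate 3, as without psoas replicate 2, 7 members were called. *Cxadr*, a tight junction adhesion protein of epithelia, was not on the list and counted 39.6, 15.3, 13.9, 22.9 and 20.3 in EDL and 298, 428, 84.3, 115 and 185 in psoas (log2 fold change 3.26, SE 0.452, adjusted p = 0.00104).

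Lymphatic markers were higher as well, 5 of 9, and 3 of 9 without EDL replicate 3 (median 2.17, sums 414 to 1190 in EDL and 1508 to 3302 in psoas). *Mmrn1*, multimerin of lymphatic endothelium, counted 70.3, 35.7, 19.9, 18.5 and 28.4 in EDL and 587, 326, 165, 149 and 358 in psoas (log2 fold change 3.13, SE 0.434, adjusted p = 0.00104). *Ccl21a*, the chemokine that guides leukocytes into lymphatics, counted 54.9, 38.3, 19.9, 30.5 and 21.6 in EDL and 185, 324, 136, 232 and 367 in psoas (log2 fold change 2.85, SE 0.32, adjusted p = 0.000654). *Reln*, reelin, was called in every fit too (log2 fold change 2.31, SE 0.336, adjusted p = 0.00124), and *Prox1*, the factor that specifies lymphatic endothelium, in 12 of 13 leave-one-out fits (log2 fold change 2.17, SE 0.389, adjusted p = 0.00345, and 0.0115 without EDL replicate 3). *Flt4* (1.69), the lymphatic growth factor receptor, is named outside the rule. The T and B cell genes *Cd4* (9.37, 3.83, 1.99, 3.27 and 4.06 in EDL, 25.2, 43.8, 20.2, 26.9 and 16.6 in psoas) and *Ms4a1* (5.96, 9.57, 7.96, 3.27 and 5.41 in EDL, 27, 57.7, 11.9, 22.6 and 50.6 in psoas) were called at adjusted p of 0.00424 and 0.00595. Without psoas replicate 2, which had the highest counts of both, the adjusted p were 0.0131 and 0.0182 and neither was called. Blood endothelium gave 1 call of 14, *Vwf*, von Willebrand factor (log2 fold change 1.42, SE 0.226, adjusted p = 0.00196), with a median of 0.16.

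Of 14 tendon markers 6 were lower and 0 higher in psoas (median -2.06), and all 6 were called in every fit. With the replicate block 8 were lower and 2 higher, *Tnxb* and *Egr1*, named outside the rule, which had log2 fold changes of 1.12 and 1.28 there. *Kera*, keratocan, a proteoglycan of tendon (chromosome 10, 97606879 to 97613692, forward strand), counted 1123, 1292, 1822, 2320 and 2103 in EDL and 55.4, 73.7, 62.3, 189 and 268 in psoas (log2 fold change -3.74, SE 0.474, adjusted p = 0.000874). *Tnmd*, tenomodulin, counted 1808, 1820, 1559, 2783 and 2709 in EDL and 79.2, 489, 249, 451 and 487 in psoas (log2 fold change -2.61, SE 0.399, adjusted p = 0.00162). *Mkx*, a homeobox factor of tendon cells, *Fmod*, fibromodulin, and *Cilp2*, a matrix protein, were 4.94, 5.35 and 8.24 times as high in EDL, without overlap, and *Comp*, named outside the rule, had a log2 fold change of -2.22. *Scx*, the early tendon factor, was not called (-0.49). Of 11 cartilage markers 4 were lower (median -1.89), and 6 with the replicate block. *Wif1*, a Wnt inhibitor, counted 199, 310, 275, 426 and 445 in EDL and 10.2, 18.2, 16.5, 51.2 and 64.7 in psoas (log2 fold change -3.38, SE 0.461, adjusted p = 0.00104), and *Ucma*, a cartilage matrix protein, was at least 10.9-fold lower in psoas (no psoas library exceeded 3 counts). *Epyc* and *Matn3* passed in the main test (-2.57 and -2.54, adjusted p = 0.00831 and 0.0097) but each in 2 of 13 leave-one-out fits, with 0.0223 and 0.0252 without EDL replicate 5. The summed tendon markers were 23562 to 43725 in EDL and 11392 to 23448 in psoas, and the summed cartilage markers 1072 to 1890 and 596 to 852. The part of such tissue in the muscle genes described above was not tested.

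**Figure D4:**
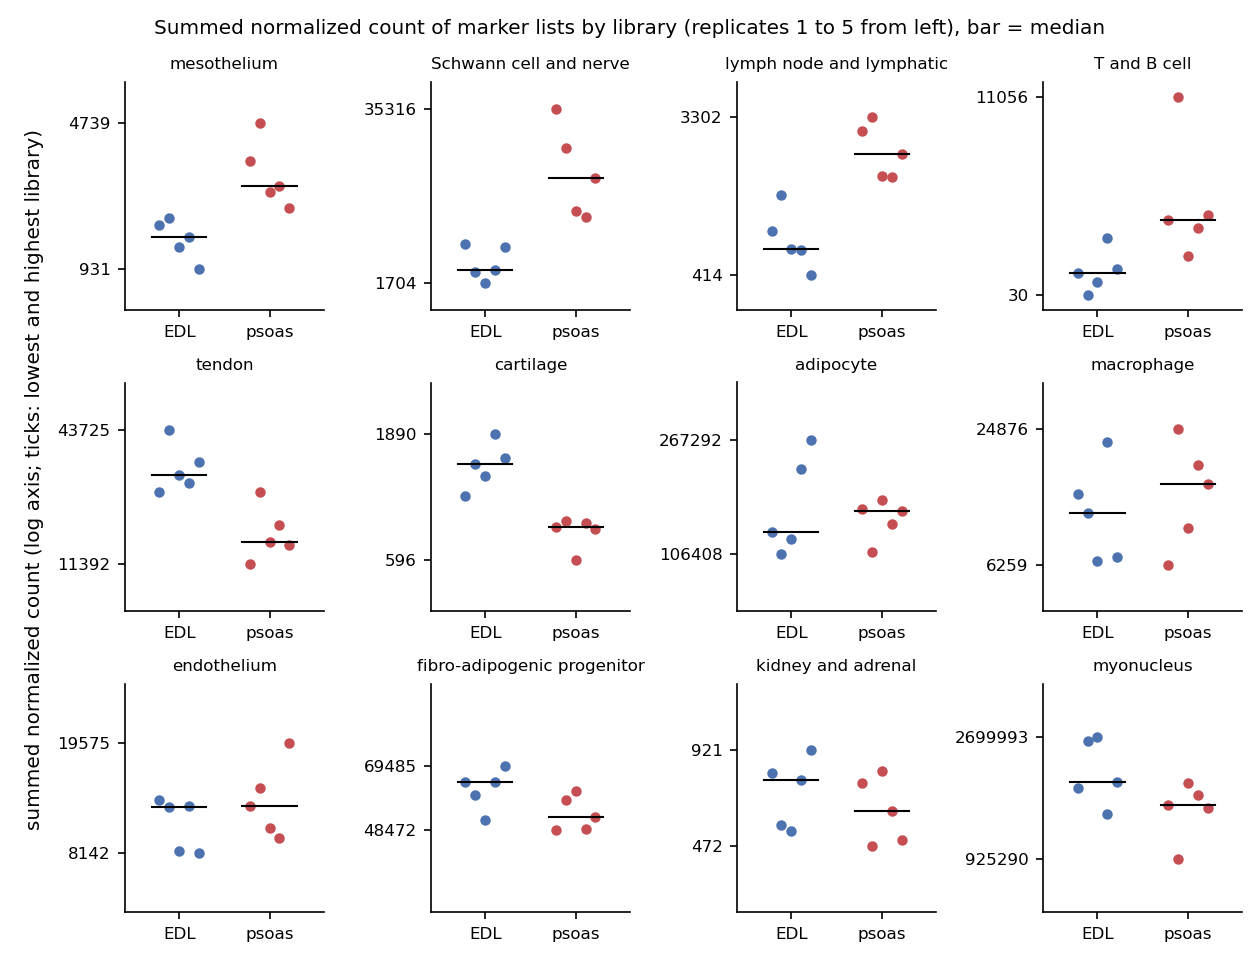
Summed normalized counts of the 12 marker lists (vertical log axes, labelled at the lowest and the highest library) in the 5 EDL (blue) and 5 psoas (red) libraries, with a bar at the median. Schwann, mesothelial and lymphatic sums lie higher in every psoas library and tendon and cartilage sums lower, and psoas replicate 2 reaches 11056 in the T and B cell panel.

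Of 27 genes of the basement membrane and dystrophin complex 4 were higher and 2 lower, against 2 and 1 without EDL replicate 3. *Hspg2*, perlecan, counted 1694, 2245, 741, 1681 and 1692 in EDL and 4105, 5015, 3895, 5792 and 4393 in psoas (log2 fold change 1.52, SE 0.255, adjusted p = 0.0024), and *Nid2*, nidogen, was also higher in every fit (log2 fold change 1.80, SE 0.303, adjusted p = 0.00247). *Dag1*, dystroglycan (1.13), and *Agrn*, agrin (1.08), were higher as well. The *Dag1* call was lost on leaving out any 1 of EDL replicates 1, 3, 4 and 5 and psoas replicates 1 and 4 (highest adjusted p = 0.0182, without EDL replicate 3), and the *Agrn* call held in 4 of 13 leave-one-out fits (highest adjusted p = 0.0241, without psoas replicate 2). *Sgca*, alpha-sarcoglycan of the fibre membrane, averaged 3710 ± 954 in EDL and 1344 ± 428 in psoas (log2 fold change -1.47, SE 0.253, adjusted p = 0.00281). Of 33 other matrix genes 2 were higher, *Mfap4* (1.40) and *Ltbp2* (1.40), both proteins of elastic fibres, with 0.0166 and 0.0234 without EDL replicate 3. Leaving out psoas replicate 2 ended both calls too. With the replicate block 6 of the 33 were higher and 1 lower.

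*C3*, the central complement component, counted 569, 1901, 768, 2498 and 690 in EDL and 4269, 18551, 4338, 4946 and 5055 in psoas, where replicate 2 was far above the rest (log2 fold change 2.53, SE 0.513, adjusted p = 0.00602). Its call was lost on leaving out any 1 of EDL replicates 1, 3 and 5 and psoas replicate 2 (highest adjusted p = 0.0203, without EDL replicate 3), and without psoas replicate 2 its adjusted p was 0.012. *Il33*, an alarm cytokine, was 2.54 times as high in psoas (log2 fold change 1.34, SE 0.251, adjusted p = 0.00403, and 0.0134 without EDL replicate 3). Its call was also lost without psoas replicate 2. *C3* and *Il33* were the 2 calls among 27 chemokine, cytokine and complement genes, against 4 with the replicate block and 0 without psoas replicate 2. Of 28 interferon response genes 27 had a log2 fold change above 0 (median 0.79), and 1, the peptide transporter *Tap1*, was called (log2 fold change 1.05, SE 0.233, adjusted p = 0.00909), a call that held in 1 of 13 leave-one-out fits (highest adjusted p = 0.025, without psoas replicate 2) and was not made with the replicate block (adjusted p = 0.0146). The macrophage markers gave 0 calls of 16 in edgeR (1 at an unadjusted p under 0.05, 1 called by DESeq2), with a median of 0.52 and sums of 6550 to 21737 in EDL and 6259 to 24876 in psoas. The fibro-adipogenic progenitor markers likewise gave 0 of 10 (3 at an unadjusted p under 0.05, 0 called by DESeq2). Of 16 adipocyte markers 1 was higher, *Cidea*, a lipid droplet protein of brown fat, with marker sums of 106408 to 267292 in EDL and 108121 to 165133 in psoas (80.5, 64.4, 67.7, 73 and 89.3 in EDL, 113, 341, 384, 334 and 962 in psoas, log2 fold change 2.50, SE 0.407, adjusted p = 0.00206).

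Lists of stress and protein turnover moved little. *Slc7a5*, the large neutral amino acid transporter (chromosome 8, 121881150 to 121907694, reverse strand), was the 1 call among 24 genes of serine, one-carbon metabolism and the integrated stress response, with 39.6, 34.5, 47.8, 35.9 and 43.3 normalized counts in EDL and 204, 179, 239, 171 and 170 in psoas (log2 fold change 2.27, SE 0.269, adjusted p = 0.000665). The spread within each muscle was small against this difference. Of 20 p53 target genes *Cdkn1a*, the cell cycle inhibitor p21 (log2 fold change 1.47, SE 0.28, adjusted p = 0.00429, and 0.0146 without EDL replicate 3), and *Zmat3* (log2 fold change 1.32, SE 0.298, adjusted p = 0.00971, and 0.0263 without EDL replicate 3) were higher. *Ccng1*, cyclin G1, was lower with overlapping libraries (log2 fold change -1.35, SE 0.3, adjusted p = 0.00919, and 0.0269 without psoas replicate 2). Of 26 atrophy and proteolysis genes the ubiquitin ligase genes *Fbxo40* (log2 fold change -1.91, SE 0.359, adjusted p = 0.00412) and *Asb2* (log2 fold change -1.14, SE 0.253, adjusted p = 0.00918) were lower, and with the replicate block neither was called (adjusted p = 0.0111 and 0.0198). The atrophy ligases *Fbxo32* (-0.16) and *Trim63* (-0.77) were not called. *Hspb2*, a small heat shock protein of muscle, was lower in psoas in every fit (log2 fold change -1.54, SE 0.247, adjusted p = 0.00201), as the 1 call of 24 chaperones. The median log2 fold change over 20 clock genes was -0.06.

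The proteasome (35 genes) and the lysosome and autophagy list (27 genes) gave 0 calls in edgeR, with 17 and 10 genes at an unadjusted p under 0.05 and 0 and 0 called by DESeq2. Of all genes tested 33.3% had such an unadjusted p. The proteasome genes nevertheless lay to one side, 33 of 35 below 0 with a median of -0.44.

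**Figure D5:**
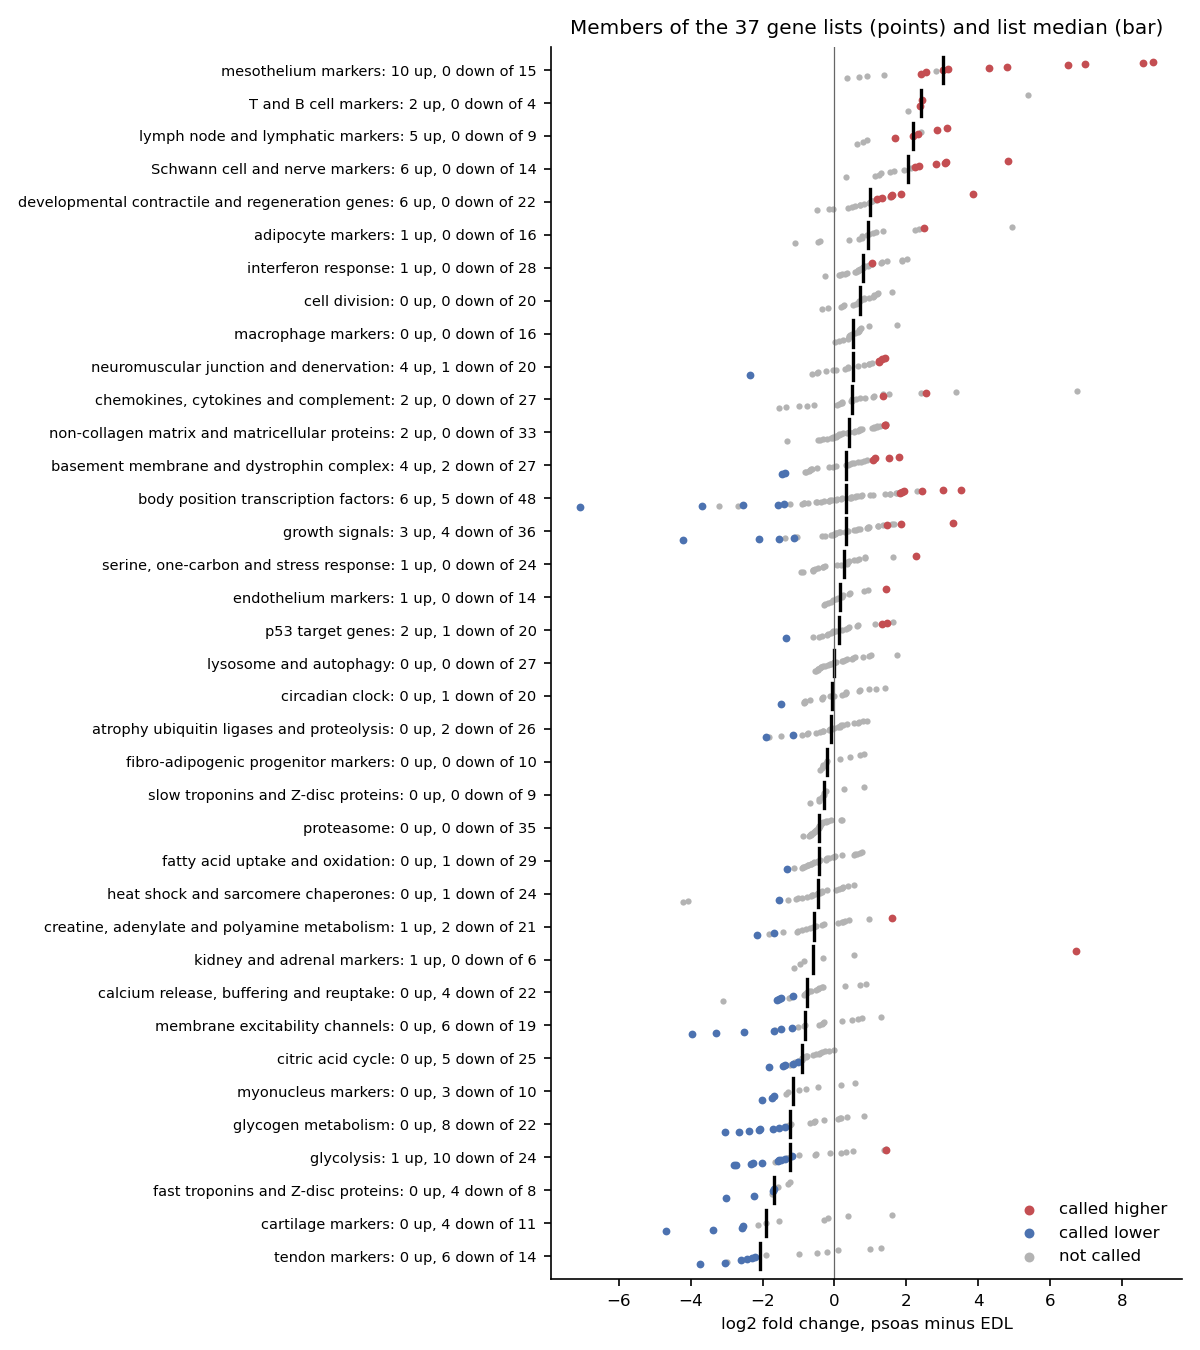
Log2 fold change of psoas minus EDL (horizontal axis) of the members of the 37 gene lists, ordered by list median (black bars), red where called higher, blue where called lower and grey where not called. Mesothelium markers lead at a median of 3.01 and tendon markers close at -2.06.

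Of the 841 called genes 716 were on none of the 37 lists. Among the genes of at least 200 normalized counts in the higher muscle, *Dusp26*, a dual-specificity phosphatase (chromosome 8, 31089471 to 31097047, forward strand), counted 572, 1122, 1181, 170 and 191 in EDL and 39.1, 34.2, 65, 33.9 and 53 in psoas (log2 fold change -3.86, SE 0.53, adjusted p = 0.00104). *Car14*, a membrane-bound carbonic anhydrase (log2 fold change -3.78, SE 0.589, adjusted p = 0.00182), and *Smco1*, a single-pass membrane protein (log2 fold change -3.02, SE 0.389, adjusted p = 0.000907), were also lower in psoas without overlap, and all 3 were called in every fit. *Tspan8*, a tetraspanin, averaged 508 ± 401 in EDL and 37.9 ± 35.7 in psoas (log2 fold change -3.74, SE 0.732, adjusted p = 0.00506), and its call was lost on leaving out any 1 of EDL replicate 3 and psoas replicates 2 and 4 (highest adjusted p = 0.0153, without EDL replicate 3) and was not made with the replicate block (adjusted p = 0.0141). The most abundant genes higher in psoas were *Macf1*, a linker of microtubules and actin (log2 fold change 1.08, SE 0.231, adjusted p = 0.00798), *Lrp1*, an endocytic receptor (log2 fold change 1.47, SE 0.269, adjusted p = 0.00375), and *Atp13a3*, a polyamine-transporting ATPase (log2 fold change 1.30, SE 0.289, adjusted p = 0.0092), beside *Igf2*, *C3* and *Grb10* above. The *Macf1* and *Atp13a3* calls held in 3 and 2 of 13 leave-one-out fits, with 0.0242 and 0.0251 without EDL replicate 3, and the *Lrp1* call was lost on leaving out any 1 of EDL replicate 5 and psoas replicate 2 (highest adjusted p = 0.0113, without EDL replicate 5).

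The calls in the 2 directions differed in the kind of gene. Of 13924 protein-coding genes 412 were higher and 339 lower, whereas of 1101 processed pseudogenes 0 were higher and 46 lower. Of all 49 called pseudogenes, counting 2 transcribed processed ones and 1 of another class, 48 shared at least 10% of their 31-base words with the transcripts of a protein-coding gene, and for 40 of them that gene was *Gapdh*. The *Gapdh* copies shared 11.5% to 90.4% of their words with it, had log2 fold changes from -2.20 to -1.12, and reached a mean of 15283 normalized counts in EDL, beside 56517 for *Gapdh* itself (-1.49). Reads from stretches that copies share cannot be assigned with certainty, so these 48 calls and that of *Gapdh* are uncertain as separate genes. The 1 called pseudogene left shared no such word with a protein-coding transcript. Without all 49 pseudogenes 377 genes were lower. Called protein-coding genes also differed in exon length, with a median of 6191 bases for those higher in psoas, 3037 for those lower and 4470 for those not called. When protein-coding genes were split into 10 classes of equal number by exon length, the class median log2 fold change ran from -0.26 for the shortest to 0.28 for the longest. After subtracting these medians, 341 of the 412 and 304 of the 339 called protein-coding genes were still past 2-fold. The part of transcript length in the single results was not tested otherwise. By the RNA integrity numbers in the study's supplement, no psoas library had a higher value than any EDL library. RNA integrity thus nearly followed the muscle, and its part in the differences described here was not tested.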

How the data were processed

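RNA-seq was measured on total RNA of whole *mdm* muscles, 5 EDL, 5 psoas and 3 soleus libraries, grouped by the labelled muscle and genotype. Per the study's methods, the authors trimmed reads of lower quality with Trimmomatic 0.32, aligned them to GRCm38.p4 with TopHat2 2.1.1, counted reads per gene with GenomicAlignments and removed genes with low counts. The overlap mode, the strand setting and the treatment of reads with several matches are not given in the sources used here, so overlapping and antisense genes and near-identical copies are uncertain. The deposited counts are whole reads per gene and library, as the authors counted them. The deposited signal values are these counts divided by 1 size factor per library, here called normalized counts, and were used for the values printed.

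Genes were tested from the counts with edgeR 4.0.16 (R 4.3.3), with trimmed mean of M-values scaling and a quasi-likelihood fit of the muscle over all 13 libraries, so that soleus shared in the estimate of the spread. A call needed a more than 2-fold difference and a p under 0.01 after Benjamini-Hochberg adjustment. The SE was computed from the fold change and the F statistic. The study's own model, which added the sequencing run, could not be fitted because the labels do not name the run. The labels' condition code stood in as an alternative, along with the replicate number as a block, age, DESeq2 1.42.0, limma 3.58.1 on log2(normalized count + 1), other scalings and filters, and leaving out each library. Same-numbered EDL and psoas libraries deviated together from their group means (correlations 0.29 to 0.41 over genes, at most 0.24 between other numbers), and were taken as pairs in the block on these correlations. The highest, 0.41, was that of replicate 1, whose muscles came from mice of different age. The correlations therefore do not show that same-numbered libraries share a mouse, and the block holds 1 pair that does not. No pair of libraries of the same muscle was a duplicate (chi-square per degree of freedom at least 56.5), and pairs across muscles were not checked. In a simulation of psoas against EDL over 17005 genes, 200 genes changed 8-fold were recovered to 100% with 1 false call. It gave all genes 1 dispersion (0.106) and had no effects of age, condition code or single libraries. The genes called in the real data had smaller changes, with median log2 fold changes of 1.52 and -1.55. The simulation therefore does not measure power or false calls in these data.

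Total counts were 9114176 to 48835209 per library, and intervals of counting error were not used beyond a floor of 3 counts in the shallowest library of a group. Apart from the families left out, genes were named by rule. These were the 12 genes of highest and the 12 of lowest fold change among called genes without overlap and with a mean of at least 200, the 6 most abundant called genes in each direction, up to 4 called members per list and direction by adjusted p, and both members of a pair with a call. Genes said to be named outside the rule, and list members given as not called, were chosen after their values were seen. The members, the gene lists and the pairs were chosen with earlier results of these data known, so the counts over lists are descriptions. Gene positions and biotypes come from a GENCODE annotation of GRCm38 and promoter windows from RefSeq on GRCm38.p6. Exon length is the summed length of the merged exons. Results for some genes that entered the counts are not reported here.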

Additional observations from a re-analysis of the deposited data

Results flagged for a closer look

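A sample was noted where the highest or the lowest library of a muscle stood apart from the other 4 by Dixon's ratio. This was so in 22 of 260 groups of 5 libraries examined, 8.46%. The ratio's nominal rate of about 1 in 20 holds for independent, normally distributed values. These were counts of genes that vary together in the same libraries, some with very few reads, so the share cannot be compared with that rate. Psoas replicate 2 accounted for 6, psoas replicate 1 for 5, psoas replicate 3 for 4, EDL replicate 1 for 3, EDL replicate 4 for 2, and EDL replicates 2 and 5 for 1 each.

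In psoas replicate 2, the T and B cell markers summed to 11056 normalized counts and *C3* stood at 18551, *Sfrp1* at 1265, *Pkhd1l1* at 454 and *Lrp1* at 12380, with *Tap1* at 199, each the highest of its group. In psoas replicate 1, *Reln* stood at 860, *Kif1a* at 573, *Cdkn1a* at 923 and *Hoxa13* at 1.4 normalized counts, and *Chrng* stood low at 138. In psoas replicate 3, *Runx1* stood at 1871, *Atp13a3* at 12144, *Hoxc11* at 0.916 and the summed cartilage markers at 596.

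In EDL replicate 1, *Bmp5* stood at 342, *Cd4* at 9.37 and *Upk3b* at 0.426. In EDL replicate 4, *Ucma* stood at 56.6 and the summed T and B cell markers at 164. *Dlk1* stood at 17.9 in EDL replicate 2 and *Pgam2* at 17492 in EDL replicate 5.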

How the results depend on the processing

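Against 415 genes higher and 426 lower in psoas, DESeq2 called 812 and 774, and an adjusted p under 0.05 without a fold limit gave 1546 and 1547. Age as a covariate gave 270 and 240, and leaving out replicate 1 of both muscles, the pair that differed in age and condition code, gave 157 and 186. The replicate block, which pairs muscles by number, gave 702 and 565. The fit of the 10 psoas and EDL libraries alone gave 296 and 261. Leaving out 1 library gave 170 to 402 higher and 147 to 449 lower genes, with the lowest counts of both without EDL replicate 3. The label code as a block (576 and 530), limma (496 and 493), RLE scaling (405 and 453), the deposited size factors (415 and 430), no filter (400 and 383) and a filter over all 10 libraries (456 and 405) stayed within 1.5 times. So did leaving out pseudogenes (377 lower). Subtracting the median of the exon length class, a step that can only lose calls, kept 341 of 412 higher and 304 of 339 lower protein-coding genes. Both were chosen after seeing the data. Of the 118 called genes named by rule, DESeq2 and RLE scaling kept 118, limma 116, the replicate block 110, the label code 103, the age covariate 85, leaving out replicate 1 of both muscles 67, and leaving out EDL replicate 3 or psoas replicate 2 kept 58 and 68. None of these 118 turned its direction in the settings that gave it a value, which the filter over all 10 libraries did for 96 and the differences within the 3 shared condition codes for 115, 114 and 116. The cause of these changes was not tested. Depth limits the genes with few counts, such as those at the floor in 1 muscle.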

Other observations

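Genes expressed from 1 parental copy (imprinted genes) are known for roles in fetal growth, and a list of 24 of them was drawn up after the values of *Igf2*, *Dlk1* and *Grb10* had been seen, so its counts support nothing. Of 22 tested, 6 were higher in psoas and 0 lower in edgeR's quasi-likelihood test, with 17 of 22 above 0 and a median log2 fold change of 0.77. Beside the 3 genes named, *Zim1*, a zinc finger gene, had 169 to 346 normalized counts in EDL and 585 to 961 in psoas (log2 fold change 1.49, SE 0.225, adjusted p = 0.00156). *Peg10*, a gene derived from a retrotransposon, had 19.9 to 53 in EDL and 55.9 to 228 in psoas (2.18, SE 0.382, adjusted p = 0.00300). *Plagl1*, a zinc finger factor that regulates other imprinted genes, overlapped between the muscles, with 31.1 to 132 in EDL and 110 to 460 in psoas (2.12, SE 0.390, adjusted p = 0.00382). The cytosolic ribosomal proteins other than *Rpl3l*, also listed afterwards, gave 0 calls of 76 with a median of -0.23, and 5 of the 76 lay above 0.

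Single libraries stood far from their group in genes that were not called. The stress-induced chaperones *Hspa1a* and *Hspa1b* reached 25692 and 30946 normalized counts in EDL replicate 1, against 167 to 710 and 127 to 649 in the other EDL libraries. *Ucp1*, the uncoupling protein of brown fat, reached 4911 in psoas replicate 5 against at most 73.3 in the other psoas libraries. *Saa3*, an acute phase protein, reached 860 in psoas replicate 2 against at most 47.6.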
